A study of Danio rerio with 16 samples.

Results

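A set of 5 genes with 6 probe sets was chosen by the difference in brain expression between zebrafish strains labelled Domesticated and strains labelled Wild and by how little their pools overlapped: lgals3bp.1, slc20a2, cd99l2, mef2aa and ppdpfa. They were found by gene symbol among the 4922 genes that had a probe set with a single symbol, and their 6 probe sets were among 7922 tested. The cd99l2 gene had 2 probe sets and each of the other genes had 1. Since these values chose the genes, the difference between rearing histories is given for these genes as a description without a test.

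Brain RNA of adult zebrafish (Danio rerio) was hybridized to 16 Affymetrix Zebrafish Genome Arrays, which carry short probes grouped into probe sets for each transcript. Strains TM1 and SH, both kept for many generations in captivity, are labelled Domesticated, and strains Nadia and Gaighatta, recently derived from wild Indian populations, are labelled Wild. Each strain contributed 2 female (F1, F2) and 2 male (M1, M2) pools, and each pool held the whole brains of 2 to 5 fish of a single sex that had shared a tank. All fish were 4 to 6 months old, were raised in the same facility on the same diet and had been observed in a behavior assay before sampling. Every pool is therefore a mixture of animals, and each rearing history is represented by only 2 strains. TM1 is described in the study's methods as a transgenic strain with GFP under a β-actin promoter, and no transgene is described for the other strains.

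The proteins of these genes act at different places in the cell. The galectin-3-binding protein family is secreted and, in mammals, binds galectins and extracellular matrix at the cell surface. SLC20A2 (PiT-2) carries phosphate with sodium into cells, and in humans its loss causes calcification of the brain, while CD99L2 is an adhesion protein that, in the mouse, helps leukocytes cross the endothelium. MEF2 factors are calcium-responsive transcription factors of muscle and neurons that control differentiation and synapse number, and the ppdpf genes were named in zebrafish for a part in the growth of exocrine pancreas progenitors.

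The deposited values of all probe sets lay between 2.27 and 13.23 on the log2 scale, with array medians between 6.08 and 6.20. Pools correlated with the others of their strain at a mean r of 0.971 to 0.984. The male pool TM1 M1 stood alone in its strain for 5.97% of probe sets, more than any other pool. The strain labels were not borne out by GFP: a GFP control probe set lay between 8.58 and 10.46 in the pools labelled Gaighatta and at 3.36 or below in all others, the pools labelled TM1 included. Compared over 112 probe sets with the expression values that accompany the study, arrays labelled TM1 were found there as Gaighatta, those labelled SH as Nadia, those labelled Nadia as SH and those labelled Gaighatta as TM1, within a tolerance of 0.0001. The sex was the same in 16 of 16 arrays and the strain in 0. Under the study's naming the pools high in GFP are those of TM1, the strain described as transgenic, which is not so under the deposited labels. The split into 8 and 8 pools is the same under either naming. Under the study's naming, however, the sign of each difference by rearing history given below is reversed. Strain names below are the deposited labels, and every direction is given by them. Probe sets with sequence differences between strains were not removed here. Whether such differences changed the values called expression below was not tested.

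Pools labelled Domesticated had higher levels of lgals3bp.1, slc20a2 and mef2aa and lower levels of ppdpfa and cd99l2 than pools labelled Wild. The 8 and 8 pools did not overlap for 2 of the 6 probe sets (slc20a2 and ppdpfa), and leaving out at most 1 pool separated them for 5 of 6. Over all probe sets tested the corresponding shares were 0.947% and 3.57%, and nothing is read from the contrast because it chose the genes. A difference of at least 1 on the log2 scale was reached by 5 of the 6 probe sets and by 0.921% of all probe sets. The median absolute difference over all probe sets was 0.12 and its 95th percentile 0.48.

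**Figure D1:**
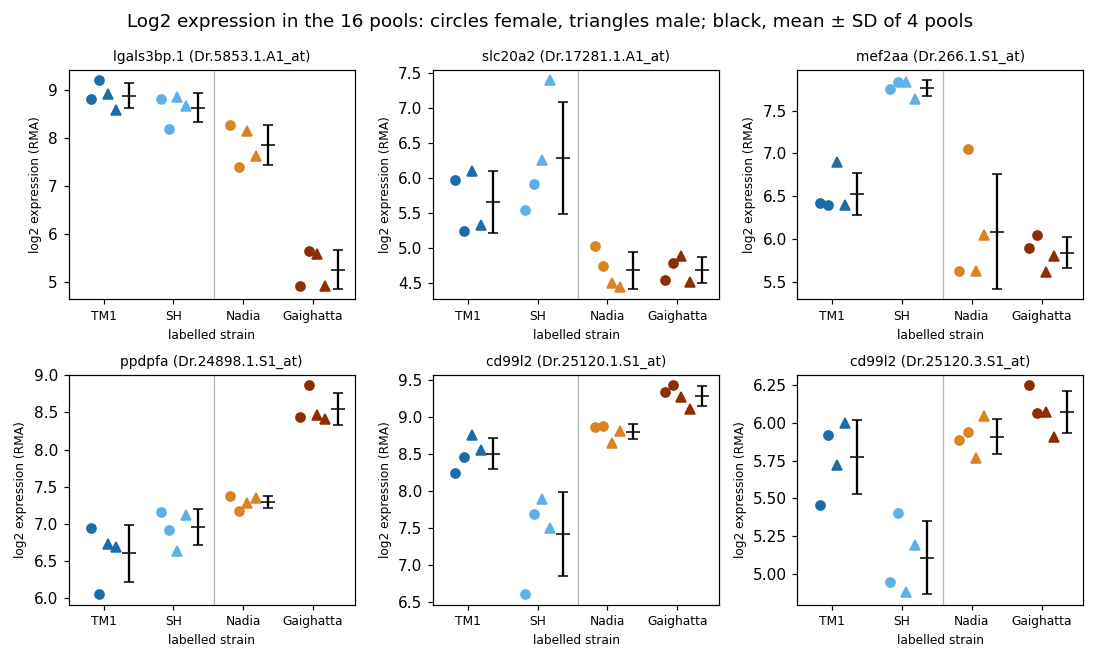
Log2 expression value of each of the 6 probe sets in the 16 pools, by labelled strain, with female pools as circles, male pools as triangles and the mean ± SD of 4 pools in black. The vertical line separates strains labelled Domesticated, on the left, from those labelled Wild. Gaighatta stands apart for lgals3bp.1 and ppdpfa, SH stands apart for mef2aa and cd99l2, and slc20a2 is low in both strains labelled Wild.

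**Figure D2:**
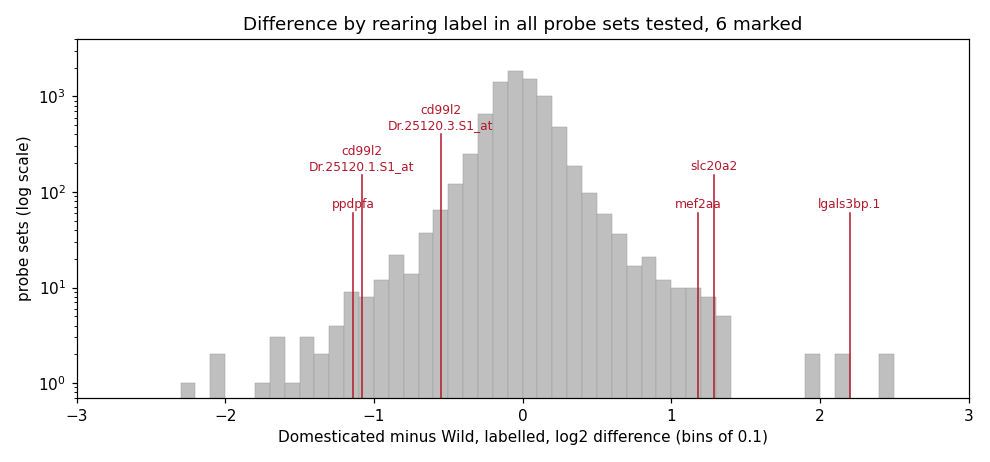
Number of probe sets (log scale) by the difference between the mean of strains labelled Domesticated and the mean of strains labelled Wild, in log2 units and bins of 0.1, over 7922 probe sets. Lines mark the 6 probe sets described, with ppdpfa (-1.14) farthest to the left and lgals3bp.1 farthest to the right.

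The secreted galectin-binding protein lgals3bp.1 (Dr.5853.1.A1_at) had the 3rd highest positive difference of all probe sets. In the order F1, F2, M1, M2 its log2 expression was 8.82, 9.22, 8.93 and 8.58 in TM1 and 8.83, 8.20, 8.86 and 8.68 in SH. It was 8.27, 7.40, 8.15 and 7.63 in Nadia and 4.92, 5.66, 5.58 and 4.92 in Gaighatta. All 4 pools labelled Gaighatta lay below every other pool, and the only crossing between the histories was SH F2 below Nadia F1. Strain means fell from 8.89 ± 0.26 in TM1 through 8.64 ± 0.30 in SH and 7.86 ± 0.41 in Nadia to 5.27 ± 0.41 in Gaighatta (SD, n = 4 each). The mean of the strains labelled Domesticated exceeded that of the strains labelled Wild by 2.1996 (4.59-fold). The gap between strains within the Wild label was of the same order: Nadia exceeded Gaighatta by 2.59 (SE 0.22, 95% interval 2.13 to 3.06, 6.04-fold, limma adjusted p = 7.80e-07). TM1 and SH, neighbours at the top of the order, differed by 0.25 (95% interval -0.22 to 0.72, limma adjusted p = 0.539), and by 0.10 without SH F2. Without SH F2 the sides were separated by 0.31, and without Nadia F1 by 0.052. Of the summed squared deviations of this probe set, 56.2% lay between the histories, 39.5% between strains of the same history and 4.34% within strains.

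The phosphate transporter slc20a2 (Dr.17281.1.A1_at) was the gene in which the 2 strains labelled Wild were closest to each other. Its log2 expression in F1, F2, M1 and M2 was 5.97, 5.24, 6.102 and 5.32 in TM1 and 5.55, 5.92, 6.26 and 7.40 in SH. It was 5.03, 4.74, 4.51 and 4.44 in Nadia and 4.54, 4.79, 4.89 and 4.52 in Gaighatta. Every pool labelled Domesticated lay above every pool labelled Wild, by at least 0.21. The difference was 1.29 (2.44-fold), from 5.97 ± 0.68 to 4.68 ± 0.21 (SD, n = 8 pools each). Nadia (4.68 ± 0.27) and Gaighatta (4.68 ± 0.18; SD, n = 4) differed by -0.004, with a 95% interval of -0.64 to 0.63 (limma adjusted p = 0.995). SH (6.28 ± 0.80) lay above TM1 (5.66 ± 0.44, SD, n = 4), and TM1 minus SH was -0.62 (SE 0.30, 95% interval -1.25 to 0.01, limma adjusted p = 0.214). This pair did not pass the threshold, but with so wide an interval it is not shown to be alike. Without SH M2, the highest pool, this difference was -0.25 (limma adjusted p = 0.545). The share of squared deviations within strains, 27.6%, was the largest of the 6 probe sets, with 64.8% between histories and 7.60% between strains of the same history.

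The adhesion protein cd99l2 was measured by 2 probe sets, which ordered the strains alike. Dr.25120.1.S1_at gave 8.25, 8.45, 8.75 and 8.55 in TM1 and 6.60, 7.68, 7.88 and 7.50 in SH for F1, F2, M1 and M2. It gave 8.86, 8.88, 8.65 and 8.81 in Nadia and 9.34, 9.42, 9.27 and 9.10 in Gaighatta. SH was lowest and Gaighatta highest, without overlap with any other strain, while TM1 and Nadia crossed by 1 pair of pools (TM1 M1 above Nadia M1). Strain means were 7.42 ± 0.56 in SH, 8.50 ± 0.21 in TM1, 8.80 ± 0.10 in Nadia and 9.28 ± 0.14 in Gaighatta (SD, n = 4), and the difference by rearing history was -1.08 (2.12-fold). TM1 exceeded SH by the same amount, 1.08 (SE 0.20, 95% interval 0.66 to 1.50, limma adjusted p = 0.00440). Nadia minus Gaighatta was -0.48 (95% interval -0.90 to -0.06, limma adjusted p = 0.122), and this difference passed the threshold of 0.05 without SH F1 (limma adjusted p = 0.0121), with array weights (-0.55, limma adjusted p = 0.0368) and when only these 2 strains were fitted (limma adjusted p = 0.0113).

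The second probe set of cd99l2, Dr.25120.3.S1_at, gave 5.45, 5.92, 5.72 and 6.00 in TM1 and 4.95, 5.40, 4.88 and 5.19 in SH. It gave 5.89, 5.94, 5.76 and 6.05 in Nadia and 6.25, 6.06, 6.07 and 5.91 in Gaighatta. Here too the pools labelled SH lay below all others, but TM1 overlapped both Nadia and Gaighatta, and 2 pools would have to be left out to separate the histories. The difference by rearing history was -0.55, which ranked 152nd among all negative differences, against 30th for the first probe set. TM1 exceeded SH by 0.67 (SE 0.13, 95% interval 0.39 to 0.95, limma adjusted p = 0.00737), and Nadia minus Gaighatta was -0.16 (limma adjusted p = 0.462). Once strain means were removed, the deviations of the 16 pools correlated between the probe sets at r = 0.34, as a description over pools that share arrays. Which parts of the transcript either probe set covers was not examined.

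**Figure D3:**
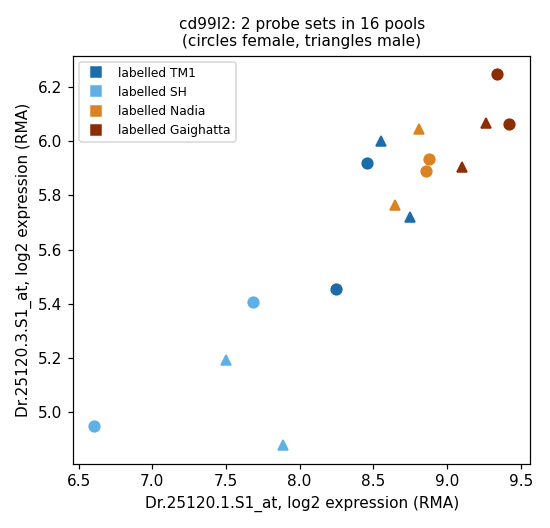
Log2 expression of cd99l2 in the 16 pools by its 2 probe sets, Dr.25120.1.S1_at on the horizontal axis and Dr.25120.3.S1_at on the vertical axis, colored by labelled strain, with circles for female and triangles for male pools. The SH pools are lowest on both axes, and Gaighatta and Nadia overlap on the vertical axis only.

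The transcription factor mef2aa (Dr.266.1.S1_at) was high in a single strain. Its log2 expression in F1, F2, M1 and M2 was 6.41, 6.40, 6.90 and 6.40 in TM1 and 7.75, 7.83, 7.83 and 7.63 in SH. It was 5.63, 7.05, 5.62 and 6.04 in Nadia and 5.89, 6.05, 5.61 and 5.80 in Gaighatta. SH lay above all 12 other pools. The Nadia pool F2 lay above all TM1 pools, and without it the histories were separated by 0.35. Strain means were 7.76 ± 0.09 in SH, 6.53 ± 0.25 in TM1, 6.09 ± 0.67 in Nadia and 5.84 ± 0.18 in Gaighatta (SD, n = 4), with a difference by rearing history of 1.18 (2.27-fold). SH exceeded TM1 by a similar amount: TM1 minus SH was -1.23 (SE 0.23, 95% interval -1.73 to -0.74, 2.35-fold, limma adjusted p = 0.00521). The neighbours Nadia and Gaighatta differed by 0.25 (95% interval -0.24 to 0.74, limma adjusted p = 0.528), and this value became -0.072 without Nadia F2.

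The differentiation factor ppdpfa (Dr.24898.1.S1_at) was highest in Gaighatta. Its log2 expression in F1, F2, M1 and M2 was 6.95, 6.05, 6.73 and 6.69 in TM1 and 7.16, 6.91, 6.64 and 7.13 in SH. It was 7.37, 7.18, 7.29 and 7.34 in Nadia and 8.44, 8.86, 8.47 and 8.41 in Gaighatta. The histories did not overlap, but the margin between SH F1 and Nadia F2 was only 0.012, against a gap of more than 1 between the Nadia and Gaighatta pools. Strain means rose from 6.60 ± 0.39 in TM1 through 6.96 ± 0.24 in SH and 7.29 ± 0.08 in Nadia to 8.55 ± 0.21 in Gaighatta (SD, n = 4), and the difference by rearing history was -1.14 (2.202-fold). Nadia minus Gaighatta was -1.25 (SE 0.17, 95% interval -1.61 to -0.90, 2.39-fold, limma adjusted p = 8.00e-05). TM1 minus SH was -0.36 (95% interval -0.71 to -0.005, limma adjusted p = 0.201), and -0.17 without TM1 F2 (limma adjusted p = 0.495). The strain order of ppdpfa was that of lgals3bp.1 turned upside down, and 36.3% of its squared deviations lay between strains of the same history.

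Comparisons between strains of the same rearing history are orthogonal to the contrast that chose these genes, although the same pools also served to judge overlap. TM1 and SH differed in 3 of the 6 probe sets (mef2aa and both of cd99l2), against 6.64% of all probe sets tested. Nadia and Gaighatta differed in 2 of 6 (lgals3bp.1 and ppdpfa), against 14.3% of all. All 6 probe sets had an interquartile range of at least 0.5, and most probe sets tested did not. Among the 854 probe sets that did, tested alone, 205 were called between TM1 and SH. Between Nadia and Gaighatta 424 of these 854 were called. Of the 5 genes, slc20a2 alone passed the limma threshold in neither comparison, with the wide intervals given above. With few genes, chosen for large differences between strains, these shares are given beside the background without a test of the difference. For lgals3bp.1, ppdpfa and mef2aa, the larger estimated strain difference within a history exceeded the mean difference between histories. For cd99l2 it was equal to it at 2 decimals on its first probe set. On the second cd99l2 probe set it was larger too, at 0.67 for TM1 minus SH beside -0.55 between histories. The 95% interval of each of these strain differences held the size of the difference between histories, so none is shown to be larger. Of squared deviations, 53.7% lay between histories for mef2aa and 54.1% for the first cd99l2 probe set. Between strains of the same history lay 30.3% and 32.4%. The share between histories was the larger for all 6 probe sets, which were chosen by that difference.

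**Figure D4:**
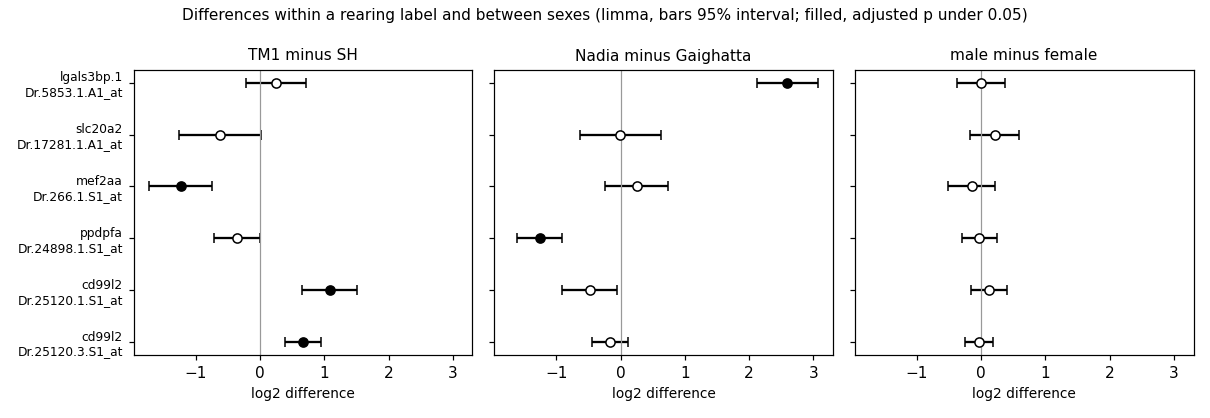
Estimated log2 differences of the 6 probe sets between TM1 and SH, between Nadia and Gaighatta and between male and female pools, with 95% intervals from limma and filled symbols where the adjusted p was under 0.05. TM1 and SH differ in mef2aa and cd99l2, Nadia and Gaighatta in lgals3bp.1 and ppdpfa, and no probe set differs by sex.

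The strains carried the differences by rearing history unequally. Without Gaighatta the difference by rearing history of lgals3bp.1 was 0.90 and that of ppdpfa was -0.51, and without Nadia they were 3.50 and -1.77. Without SH the difference of mef2aa was 0.57 and that of cd99l2 was -0.54 (first probe set), and without TM1 they were 1.80 and -1.62. The sign was kept in each case, from which nothing is read because this difference chose the genes. The slc20a2 difference ranged from 0.98 to 1.60 over these and the other alternatives run.

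No difference by sex was detected in these genes. Between male and female pools, 0 of the 6 probe sets passed limma's adjusted threshold and 0 an unadjusted p under 0.05, against 0.151% and 12.2% of all probe sets. Male minus female differences ran from -0.15 for mef2aa (limma adjusted p = 0.730) to 0.21 for slc20a2 (95% interval -0.17 to 0.59, limma adjusted p = 0.619). For lgals3bp.1 the difference was 0.002 with a 95% interval of -0.37 to 0.37, so a difference of that size remains possible. The strain by sex interaction passed for 0 of 6 probe sets (limma adjusted p = 0.993 for each, against 0.0757% of all called), and 0 had an unadjusted p under 0.05, against 4.53% of all. The lowest unadjusted p of limma's interaction test was 0.0566, for slc20a2, whose SH males exceeded the SH females by 1.098 while the sex differences of the other strains lay between -0.41 and 0.11. The SH difference was 0.53 without SH M2 and 1.67 without SH M1.

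Within strains the 5 genes showed no common direction. With strain means removed, correlations between their probe sets over the 16 pools ran from -0.48 (mef2aa with lgals3bp.1) to 0.39 (slc20a2 with the first probe set of cd99l2), as a description of pools that share arrays. In these bulk samples, fewer cells of a type and less RNA per cell cannot be told apart.

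Other genes with the most similar profiles were ranked by the root mean square difference of centred log2 profiles over the 16 pools, among 5633 probe sets of other genes with 1 symbol. Closest to lgals3bp.1 were wls, which carries Wnt proteins to the cell surface (0.56), the histone methyltransferase gene ash1l (0.62) and the cytoskeletal septin8b (0.64), where the median over all candidates was 1.49. The wls probe set averaged 6.60 in TM1, 6.20 in SH, 5.10 in Nadia and 2.74 in Gaighatta, but 2 further wls probe sets did not show this order, with means of 6.39 to 7.05 and of 7.33 to 7.61. Closest to ppdpfa were ptpra, a receptor tyrosine phosphatase (0.29), the chondroitin sulfate synthase gene chsy3 (0.33) and trak2, an adaptor for mitochondrial transport (0.36), against a median of 0.78. In ptpra the strain means rose from 5.34 in TM1 through 5.67 in SH and 5.90 in Nadia to 6.98 in Gaighatta, the order of ppdpfa.

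For mef2aa the nearest profiles were those of pcyt1aa, an enzyme of phosphatidylcholine synthesis (0.42), zgc:113516 (0.47) and dedd1 (0.47), against a median of 0.84. SH was the highest strain in each of these, as in pcyt1aa at 5.78 against 4.79 in TM1, 4.40 in Nadia and 4.18 in Gaighatta. For cd99l2 they were glyr1 (0.37), si:ch211-214b16.3 (0.40) and the sialidase gene neu3.2 (0.41), against 0.77, all with SH lowest and Gaighatta highest. For slc20a2 they were the centrosomal gene cep135 (0.52), the ciliary gene tmem231 (0.53) and acin1b (0.53), against 0.84, and SH was again the highest strain in each. These profiles share the arrays and the strain differences used to choose the genes.

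Known partners and paralogs were examined in 5 lists with 49 measured entries, of which 5 passed between histories, where 12.8% of all probe sets passed by limma. This test takes pools as replicates although only 2 strains stand on each side, so its p-values measure the spread between pools. Of 28 listed galectins and galectin-binding or lysosomal membrane proteins, 11 were measured. Of these 1 was called, the tetraspanin gene cd9b, higher in pools labelled Domesticated (0.27, limma adjusted p = 0.0152). Its strain means were 9.89 in TM1, 10.01 in SH, 9.95 in Nadia and 9.41 in Gaighatta, so Nadia lay above TM1. The median difference of the 11 was -0.078, against -0.028 over all probe sets. Between Nadia and Gaighatta, cd9b was higher (0.53, limma adjusted p = 0.00104) and the galectin genes lgals2a (-0.55, limma adjusted p = 0.000835) and lgals3a (-0.33, limma adjusted p = 0.0364) were lower in Nadia.

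Phosphate transport and calcification genes were measured for 9 of 31, and by limma 0 of the 9 passed between histories (0 at an unadjusted p under 0.05) or between TM1 and SH (2 at an unadjusted p under 0.05). The related phosphate importer slc20a1b differed by 0.058 (limma adjusted p = 0.681) and the exporter xpr1b by -0.12 (limma adjusted p = 0.359). Only enpp1, which makes the mineralization inhibitor pyrophosphate, differed between Nadia and Gaighatta (0.56, limma adjusted p = 0.00523). Of the 43 genes listed as MEF2 factors, their regulators and targets, 16 were measured. Between histories, mef2ca differed by -0.25 (limma adjusted p = 0.197) and mef2d by 0.093 (limma adjusted p = 0.502), and the kinase gene camk2d2 alone was called, at 0.38 (limma adjusted p = 0.000904). Between Nadia and Gaighatta camk2d2 was higher (0.37, limma adjusted p = 0.0110) and hdac9b, whose product represses MEF2 factors in mammals, was lower (-1.11, limma adjusted p = 0.0296).

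The paralog ppdpfb differed by -0.024 between histories (limma adjusted p = 0.851) and by -0.074 between Nadia and Gaighatta (limma adjusted p = 0.674), the pair in which ppdpfa differed most. Of the 17 genes listed with it, 6 were measured. The progenitor factor sox9a was the only one called between histories (0.70, limma adjusted p = 0.0315). Its strain means crossed between the histories, at 6.31 in TM1, 5.28 in SH, 5.73 in Nadia and 4.45 in Gaighatta. This gene was also higher in TM1 than SH (1.03, limma adjusted p = 0.0377) and in Nadia than Gaighatta (1.28, limma adjusted p = 0.00602). In this last pair sox9b was higher as well (0.41, limma adjusted p = 0.0426), and prox1a was lower (-0.53, limma adjusted p = 0.0153). Of 27 genes of leukocyte passage and endothelial junctions listed with cd99l2, 7 were measured, and 2 were called between histories: the chemokine receptor gene cxcr4b was higher (0.36, limma adjusted p = 0.0443) and the tight junction gene cldn5a lower (-0.70, limma adjusted p = 0.00417) in pools labelled Domesticated. Both had low values, with means of 3.54 (cxcr4b) and 3.15 (cldn5a), where the lowest value of all probe sets was 2.27. Between Nadia and Gaighatta, where cd99l2 did not pass, cldn5a was lower in Nadia (-0.90, limma adjusted p = 0.00682). Between sexes 0 of the 49 entries of these lists were called by limma, and 7 had an unadjusted p under 0.05.

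Markers of cell types were examined in the same pools. Neuronal markers were present in every pool, with 10 of 22 measured and a mean of 9.87 to 10.22 in pools labelled Domesticated and 10.13 to 10.34 in those labelled Wild. By limma 3 of the 10 were lower in pools labelled Domesticated and 0 higher, where 12.8% of all probe sets passed in either direction. The largest difference was that of the synaptic vesicle gene sypb (-0.46, limma adjusted p = 0.00279), and 5 of the 10 had an unadjusted p under 0.05. The lowest value of all probe sets was 2.27, so a value above 0 does not by itself show that a transcript was present. Of 33 microglia and leukocyte markers, 19 were measured, and their mean lay between 6.098 and 6.86 in TM1, 6.02 and 6.14 in SH, 6.00 and 6.23 in Nadia and 5.91 and 6.19 in Gaighatta. Between histories 3 of the 19 were higher and 1 lower by limma, where 12.8% of all probe sets passed, and 10 had an unadjusted p under 0.05. Their mean in Nadia (6.07) and Gaighatta (6.04) was nearly equal while lgals3bp.1 differed by 2.59 between these strains. Single markers did differ in this pair: ctss2.2 was higher in Nadia (0.96, limma adjusted p = 0.0290) and ctsba lower (-1.36, limma adjusted p = 0.000169). These were the only markers of the 19 called there, where 14.3% of all probe sets passed. The TM1 males had the highest list means (6.86 and 6.63), and TM1 F2, the pool highest in lgals3bp.1, had a list mean of 6.16. The part of these cells in the difference between histories was not tested.

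Endothelial and pericyte markers are given beside cd99l2. Their mean over 8 measured of 29 listed lay between 5.16 and 5.49 in pools labelled Domesticated and between 5.42 and 5.70 in those labelled Wild, and 2 of the 8 were lower in the former by limma, cldn5a and rgs5a (-1.26, limma adjusted p = 0.00707). The cldn5a call is the one already given above, from low values. Between histories 12.8% of all probe sets passed by limma. Between TM1 and SH, where cd99l2 was higher in TM1, the list mean was lower in TM1 (5.24 against 5.36). In this pair 0 of the 8 markers passed by limma (1 at an unadjusted p under 0.05), against 6.64% of all probe sets. Between Nadia and Gaighatta, where cd99l2 was lower in Nadia without passing, the list mean was lower in Nadia (5.48 against 5.63). There 1 of the 8 markers passed by limma, cldn5a, lower in Nadia, against 14.3% of all probe sets. The part of these cells in the cd99l2 difference between histories was not tested.

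Skeletal and heart muscle markers, 14 of 31 measured, varied widely within strains. Their mean ranged from 6.59 to 8.83 in TM1, 6.80 to 9.04 in SH, 6.85 to 9.18 in Nadia and 5.35 to 9.36 in Gaighatta. Nadia F2, the pool high in mef2aa, had the highest muscle marker mean of its strain (9.18). Gaighatta F1 had a still higher mean (9.36) with mef2aa at 5.89, and SH M1 a mean of 6.80 with mef2aa at 7.83. Between histories 0 of the 14 markers passed by limma, against 12.8% of all probe sets, and 0 had an unadjusted p under 0.05. Their median difference was 0.69, against -0.028 over all probe sets. Between TM1 and SH, where mef2aa was lower in TM1, the list mean was lower in TM1 too (7.74 against 8.31). In this pair 1 of the 14 was called, mb, lower in TM1 (-2.03, limma adjusted p = 0.0120), against 6.64% of all probe sets. The part of muscle RNA in the mef2aa values was not tested.

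Markers of other tissues and cell types were counted in the strain pairs in which these genes were called. Between TM1 and SH, where mef2aa and cd99l2 differed, 6 of 15 measured meningeal and connective tissue markers (25 listed) were lower in TM1 by limma and 0 higher, among them the collagen gene col1a1a (-1.68, limma adjusted p = 0.0239) and the matrix protein gene sparc (-1.03, limma adjusted p = 0.000863). The mean of that list lay between 5.99 and 6.25 in TM1 and between 6.45 and 6.70 in SH, without overlap. Of 7 measured red blood cell markers (20 listed), 2 were lower in TM1, with list means of 6.49 to 7.31 in TM1 and 6.79 to 7.57 in SH. Over all probe sets 6.64% passed by limma between TM1 and SH. Pituitary markers, 6 of 18 measured, had a mean of 5.67 to 6.26 in TM1, 6.04 to 9.31 in SH, 5.96 to 8.54 in Nadia and 5.44 to 6.29 in Gaighatta. Of these 6, only the hormone precursor gene pomca was called between TM1 and SH, lower in TM1 (-2.87, limma adjusted p = 0.0302). Between Nadia and Gaighatta, the pair in which lgals3bp.1 and ppdpfa differed, 2 of the 6 were called, both higher in Nadia. They were pomca (2.43, limma adjusted p = 0.0391) and cga (2.82, limma adjusted p = 0.0451). In that pair the connective tissue list had 1 marker higher and 2 lower, where 14.3% of all probe sets passed. The red blood cell list had 1 of 7 higher, near that share. By limma 0 of 7 measured eye markers were called in either pair. Of 3 myelin and 11 radial glia markers measured, 1 in each list was lower in TM1 than SH. In these 2 lists 0 were called between Nadia and Gaighatta. The part of these tissues in the differences of the 5 genes was not tested.

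**Figure D5:**
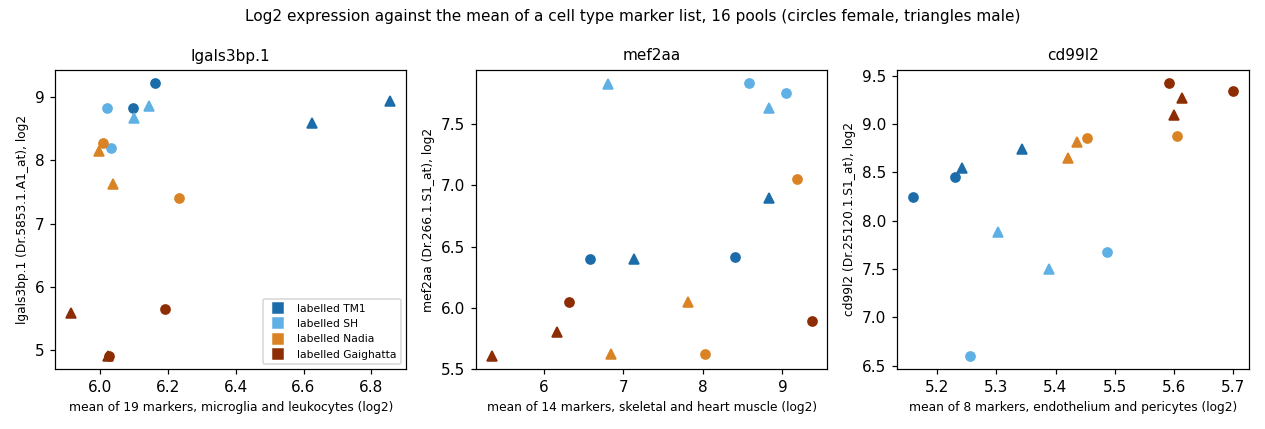
Log2 expression of lgals3bp.1, mef2aa and cd99l2 (first probe set) in the 16 pools against the mean log2 expression of 19 microglia and leukocyte, 14 muscle and 8 endothelial and pericyte markers. Colors give the labelled strain and symbols the sex, with the TM1 males highest for microglia markers and SH below the other strains for cd99l2.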

How the data were processed

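The deposited table held log2 expression values that the authors had computed from the scanned arrays by RMA (background correction, quantile normalization and probe set summary) with the affy package, of a version not given in the sources used here. Of 7958 probe sets, 36 array controls were left out of the tests. Probe sets of low signal had been removed by the authors, but a filter on an interquartile range of 0.5 had not left its mark, since 7068 of the 7922 lay below it. Polymorphisms under a probe can change a probe set's value between strains, and the study removed a large part of its expressed probe sets for this reason. The study's probe-level filter for polymorphisms was not applied here. Of the 6 probe sets, 0 are among the 112 with values that accompany the study as retained after that filter and as differing by rearing history. The study also kept only probe sets whose histories overlapped by no more than 1 sample. Here, leaving out at most 1 pool separated the histories for 5 of the 6. What left the 6 probe sets out was not tested, nor was whether polymorphisms changed their values. The study's longer list of probe sets that differ among strains was not examined for them. Genes came from the array annotation, with 5639 probe sets of 1 symbol.

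Differences were estimated in limma 3.58.1 (R 4.3.3), with a mean per strain for strain contrasts, and a strain by sex factorial for sex, with eBayes and Benjamini-Hochberg adjustment over all 7922 probe sets at 0.05. Scripts were tested on simulated data. A gene in a list is represented by its probe set of highest mean. The members and lists were chosen with earlier results of these data known. The text names all probe sets of the 5 genes, the 3 nearest profiles of each and up to 3 called genes per list and contrast, plus paralogs chosen after their values were seen. Replicates are pools of fish, and the number of arrays limits the precision. Alternatives concerned the probe sets kept, array scaling and weights, strains included, sex as a covariate, the replicate block and each pool left out.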

Additional observations from a re-analysis of the deposited data

Results flagged for a closer look

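In 36 groups of 4 or 8 pools (the 6 probe sets by strain and by rearing history), 4 held a pool far from the others. The limits used give about 1 in 20 by chance for separate groups drawn from a single normal population. Groups of 8 pools join different strains and contain the groups of 4, so that rate is only a rough guide here. For mef2aa, Nadia F2 (7.05) was 1 of 8 pools labelled Wild and the next was at 6.05, and TM1 M1 (6.90) lay above the 6.41 of the nearest TM1 pool. For ppdpfa, Gaighatta F2 (8.86) lay above the next Gaighatta pool at 8.47. For slc20a2, SH M2 (7.40) lay above the next pool labelled Domesticated at 6.26, a gap of 0.527 of the range, just past the limit. Causes were not tested.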

How the results depend on the processing

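The differences by rearing history kept their sign under all alternatives run. Because this difference chose the genes, a kept sign was likely from the start and is not read as support. Leaving out a strain moved those of lgals3bp.1, mef2aa, ppdpfa and cd99l2 beyond the spread of pools within strains. Without TM1, mef2aa was 1.80 and cd99l2 -1.62, and without SH they were 0.57 and -0.54. Without Nadia, lgals3bp.1 was 3.50 and ppdpfa -1.77, and without Gaighatta they were 0.90 and -0.51. The slc20a2 difference stayed within that spread, at 0.98 to 1.60 over these and the other alternatives. The spread is each gene's own, and that of slc20a2 was the widest (pooled SD 0.48, against 0.25 for ppdpfa). The number of probe sets with separated histories went from 2 to 5 with at most 1 pool left out. With each pool left out in turn, the difference ranged from 2.12 to 2.27 for lgals3bp.1, 1.101 to 1.41 for slc20a2, 1.11 to 1.34 for mef2aa, -1.20 to -1.05 for ppdpfa and -1.16 to -0.95 for cd99l2. Sign changes touched only differences that did not pass: Nadia minus Gaighatta ranged from -0.12 to 0.075 for slc20a2 and from -0.072 to 0.40 for mef2aa. Male minus female ranged from -0.14 to 0.081 for ppdpfa, -0.32 to 0.031 for mef2aa, -0.11 to 0.11 for lgals3bp.1, and for the cd99l2 probe sets from -0.0069 to 0.26 and -0.094 to 0.022. The member calls between TM1 and SH stayed at 3 with each pool left out and those between Nadia and Gaighatta at 2 to 3. Over all probe sets, the 526 calls between TM1 and SH became 293 without SH F2 and 266 with only these strains fitted. The 1131 calls between Nadia and Gaighatta became 1647 with array weights. The 12 calls by sex became 24 with sex additive to strain and 118 without TM1 M2, and the 6 by interaction became 31 without Nadia F1. A filter on a mean of at least 6 leaves out slc20a2 and the second cd99l2 probe set. Replicate numbers are shared between groups, and the main fits did not treat them as pairs. Between strains, deviations of pools of the same sex and number correlated at r of -0.23 to 0.31, over 0.1 in 3 of 12 pairs. Negative values of -0.23, -0.18 and -0.14 occurred as well, so the sign was not shared. No pairing was established or excluded. With the replicate block, which for strain contrasts joins sex and replicate number, the member calls were again 3 between TM1 and SH and 2 between Nadia and Gaighatta. Calls over all probe sets became 640 and 1194 with this block, and 612 and 1196 with sex alone as an additive term. The causes were not tested.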

Other observations

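Genes beside the 5 genes in the RefSeq gene order (assembly GRCz12tu, used for names and order only) were examined 10 places to each side. Of the neighbours, 6 were measured for lgals3bp.1, 5 for slc20a2, 6 for mef2aa, 6 for ppdpfa and 6 for cd99l2. Of these 29 genes, 4 were called by limma between histories (13.8%), against 12.8% of all probe sets, so that the share was near the background. Those in the direction of the member were ythdf1 near ppdpfa (-0.27) and hmgb3a, directly beside cd99l2 (-0.20), and those in the opposite direction were aopep near slc20a2 (-0.27) and mapre1a near ppdpfa (0.27). The slc20a2 and ppdpfa genes lie on the same chromosome.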
